A study of Mus musculus with 2 samples.

Results

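The 10 genes described here encode actin itself and proteins that bind it at the growing tip of an axon, several of which set how much of it is polymerised. They are the cytoplasmic actins Actb and Actg1, the beta-thymosins Tmsb4x and Tmsb10, the profilins Pfn1 and Pfn2, the severing protein Cfl1, the filament-binding protein Dbn1, and the membrane proteins Marcks and Marcksl1. They were listed by name and grouped by role, with earlier results of these data known, and all 10 were found by symbol, among 43346 mouse gene identifiers of which 21460 are nuclear protein-coding genes. Total RNA above 200 bases was sequenced from forebrain of healthy B6NCrl mouse embryos at embryonic day 13.5, with 10 ng of RNA as input and spike-in RNA added. The tissue came from male and female embryos pooled, and the samples form 1 group of 2 biological replicates with 1 library each. Both replicates carry the same donor code, and no label says that they came from separate embryos, so the spread between them may be technical. There is no treatment, genotype or time to compare. With 2 values the smallest p of an exact two-sided sign test is 0.5, so levels are described without a test.

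Actin filaments grow at one end and shrink at the other, and a growth cone advances by moving subunits from the old end to the new. Thymosins hold actin monomers in reserve, profilins hand them to growing ends, and cofilin cuts old filaments. Drebrin binds along filaments and is known for linking them to microtubules at the base of the growth cone, and the MARCKS proteins hold phosphoinositides and actin at the plasma membrane until calmodulin or protein kinase C releases them.

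Depth was 35378462 estimated counts in replicate 1 and 36793284 in replicate 2, and the members held between 13187 and 264268 estimated counts each, so counting error is small for all of them. Neural markers were present: 10 of 10 neuron markers and 8 of 8 apical progenitor markers reached 10 TPM on average. So did 8 of 10 erythroid markers and 39.8% of all protein-coding genes. TPM, the relative abundance of a gene's transcripts, is a level per length, so it can be set side by side between genes. Summed marker levels were 2698 and 2579 TPM for neurons and 2442 and 2471 TPM for progenitors in replicates 1 and 2. The erythroid markers summed higher, to 13394 and 12798 TPM. In bulk tissue, fewer cells of a type and less RNA per cell cannot be told apart. The members were not measured by cell type, so no level below is assigned to one.

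All 10 members stood above 100 TPM in both libraries, a level that 7.66% of protein-coding genes reached on average. Summed, they held 23172 TPM in replicate 1 and 25079 TPM in replicate 2, or 24126 ± 1348 TPM (SD, n = 2). That was 2.32% and 2.51% of all TPM, and 1.88% and 2.00% of estimated counts. Their levels ran from Marcks at 237 TPM to Actb at 6103 TPM, against a median of 3.91 TPM over all protein-coding genes. The order, from high to low, was Actb, Tmsb4x, Tmsb10, Actg1, Cfl1, Marcksl1, Pfn1, Dbn1, Pfn2 and Marcks. Actb and Tmsb4x stood in opposite order in the 2 libraries, and so did Tmsb10 and Actg1, so neither pair of neighbours is separated by its spread. Every other neighbouring pair kept its order in both libraries.

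**Figure D1:**
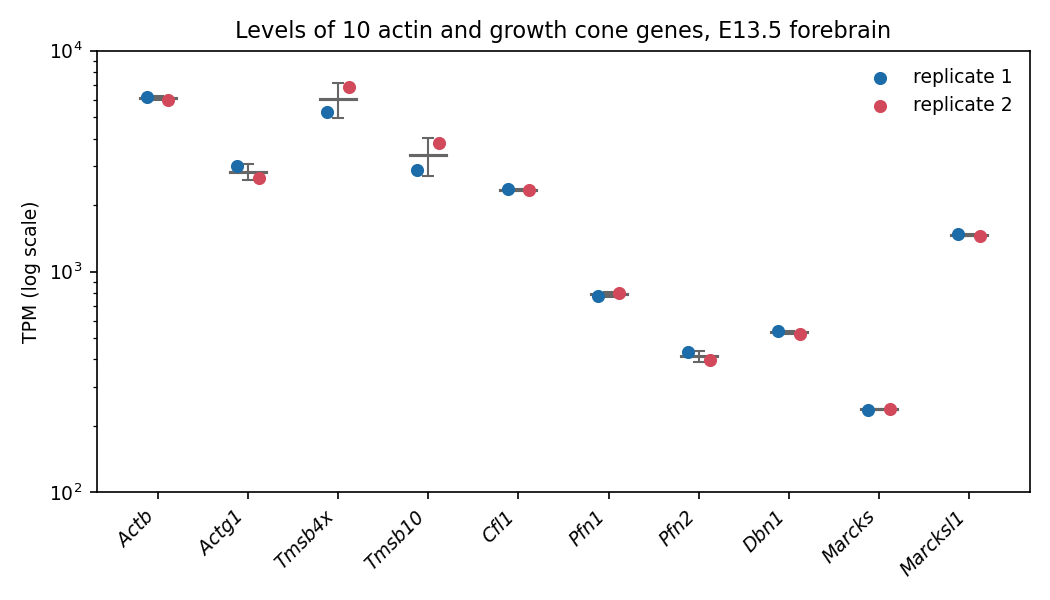
Level of each member in TPM on a log scale, with 1 point for each library and a grey line and bar for the mean ± SD of 2 libraries. The thymosins Tmsb4x and Tmsb10 show the widest gaps between points, and the points of Cfl1, Marcks and Marcksl1 nearly coincide.

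Actb and Actg1 encode the cytoplasmic beta and gamma actins, which are subunits of actin filaments. Actb (chr5:142903115-142906754, minus strand of mm10, 6 exons) ranked 2 of 21460. It was at 6201 TPM in replicate 1 and 6004 TPM in replicate 2, or 6103 ± 139 TPM (SD, n = 2), from 250042 and 264268 estimated counts. Actg1 (chr11:120345690-120348542, minus strand, 6 exons) ranked 15 at 2997 and 2659.5 TPM, or 2828 ± 239 TPM. Both actins were slightly lower in replicate 2, and the 2 genes did not overlap: the lowest Actb value was above the highest Actg1 value. Within a library Actb exceeded Actg1 2.07-fold and 2.26-fold, a mean log2 ratio of 1.11 ± 0.089 (SD, n = 2). Together the actins made up 39.7% and 34.5% of the members' TPM.

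The coding sequences show how closely the counts of these genes depend on placing reads. Over 1125 coding bases, 128 differ between Actb and Actg1, an identity of 88.6%. Of 375 codons, 125 differ, and 121 of those are synonymous. The 4 codons that encode another residue are codons 2, 3, 4 and 10, counted from the start codon, so all of them lie in the first 60 bases, which hold 9 differences. Those bases are printed from GENCODE M21 on GRCm38 (the mm10 assembly), coding strand, with capitals at each base that differs between the genes. They lie at chr5:142905627-142905686 for Actb and chr11:120348032-120348091 for Actg1, both on the minus strand.
Actb: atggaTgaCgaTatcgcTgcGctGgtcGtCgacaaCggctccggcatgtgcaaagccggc
Actg1: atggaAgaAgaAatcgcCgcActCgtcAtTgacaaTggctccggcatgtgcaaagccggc
The longest stretch without a difference in the coding sequence was 62 bases. Of the 100-base windows of the Actb transcript, 1.1% were found exactly in another gene, so most of its reads can be told from those of others.

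Actg1 was different in this respect: 51.1% of its 100-base windows (946 of 1853) were found exactly in another gene. The annotation holds 5 near-identical copies of it (at least 95% identity over at least 80% of the copy), all processed pseudogenes, and 3 of them have rows in the tables, all with reads. The most abundant, Gm12715, was listed at 33.35 and 23.11 TPM, which is 0.998% of the Actg1 level on average. The 3 copies together held 42.8 and 30.6 TPM, so adding all of them to Actg1 would move its level by less than its SD. The split of reads between gene and copies is the authors' estimate.

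The other actins were far lower. The muscle actins of the same list were Acta2 (smooth muscle) at 3.32 and 5.69 TPM, Acta1 (skeletal muscle) at 2.6 and 1.42 TPM, and Actg2 (enteric smooth muscle) at 0.27 and 1.70 TPM. Actbl2, a beta-actin-like gene, was at 0.00 and 0.02 TPM. Actc1, the cardiac actin, was at 32.35 TPM in replicate 1 and 2.22 TPM in replicate 2, from 988 and 74 estimated counts. Its log2 ratio of replicate 2 over replicate 1 was -3.37, against 0.63 for Acta2, and the other muscle markers (Myh3, Myod1, Myog, Tnnt3, Ckm and Des) were below 1 TPM in both. With Actb and Actg1 included, the median over the 7 actin genes was 4.51 ± 0.778 TPM (n = 2, SD of the 2 libraries' medians). The medians taken within each library were 3.32 and 2.22 TPM, both below that value, since Acta2 and Actc1 stood in opposite order in the 2 libraries. Over the 5 genes at 1 TPM or more in both libraries the median was 17.3 TPM. Only Actb and Actg1, 2 of the 7, passed 100 TPM.

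Tmsb4x and Tmsb10 encode short peptides that each bind 1 actin monomer and keep it from polymerising. Tmsb4x (chrX:167207093-167209315, minus strand, 3 exons) ranked 3 of 21460, at 5273 TPM in replicate 1 and 6827 TPM in replicate 2, or 6049.7 ± 1099 TPM (SD, n = 2). Its estimated counts were 78335 and 110553. Tmsb10 (chr6:72957347-72958748, minus strand) ranked 13, at 2894 and 3829.7 TPM, or 3362 ± 662 TPM, from 30199.6 and 43618 estimated counts. Replicate 2 was the higher library for both genes, and Tmsb4x was above Tmsb10 in both libraries. The ratio between them stayed close: Tmsb4x exceeded Tmsb10 1.82-fold in replicate 1 and 1.78-fold in replicate 2, a mean log2 ratio of 0.85 ± 0.022 (SD, n = 2). The thymosins made up 35.2% of the members' TPM in replicate 1 and 42.5% in replicate 2, below the actins in the one and above them in the other.

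Both thymosins have a coding sequence of 132 bases, short enough to show whole. Of 44 codons, 27 differ between them and 11 encode another residue, and 4 of those 11 are codons 40 to 43, next to the end. The sequences are from GENCODE M21 on GRCm38, coding strand, spliced, within chrX:167207504-167208036 and chr6:72957621-72958012 (both minus strand). Capitals mark the 40 bases that differ, an identity of 69.7%.
Tmsb4x: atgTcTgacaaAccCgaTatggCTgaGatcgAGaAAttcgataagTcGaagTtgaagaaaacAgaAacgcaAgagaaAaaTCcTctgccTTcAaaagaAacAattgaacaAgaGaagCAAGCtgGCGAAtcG
Tmsb10: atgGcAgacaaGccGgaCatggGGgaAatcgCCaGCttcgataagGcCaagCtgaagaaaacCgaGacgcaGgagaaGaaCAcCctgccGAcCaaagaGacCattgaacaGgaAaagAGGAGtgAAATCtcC
No stretch longer than 10 bases is shared at matching positions, and none of the 100-base windows of the Tmsb4x transcript was found in another gene. For Tmsb10, 27.8% of windows (131 of 471) were. It has 5 near-identical copies in the annotation, of which 4 have rows in the tables and 2 have reads. Gm3788, a processed pseudogene of 136 bases, was listed at 40.40 and 58.09 TPM, 1.46% of the Tmsb10 level, but from only 33.2 and 52.1 estimated counts, since TPM divides by the very short effective length. Gm9844 was listed at 26.1 and 24.9 TPM.

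The rest of the thymosin family was far lower. Tmsb15b2 was at 67.8 and 69.3 TPM, Tmsb15b1 at 34.4 and 44.5 TPM, Tmsb15l at 20.8 and 30.4 TPM, and Tmsb15a was listed at 0 in both libraries. The Tmsb15 genes resemble each other, so the estimated counts divided between them are uncertain.

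Profilins exchange the nucleotide on actin monomers and deliver them to formins and Ena/VASP proteins. Pfn1 (chr11:70651850-70654644, minus strand), the widely expressed profilin, was at 773 and 802 TPM, or 788 ± 20.96 TPM (SD, n = 2), rank 103. Pfn2 (chr3:57841895-57848079, minus strand), the profilin known for its abundance in brain, was at 431 and 397 TPM, or 414 ± 23.9 TPM, rank 288. Pfn1 was above Pfn2 in both libraries without overlap, 1.79-fold and 2.02-fold, a mean log2 ratio of 0.93 ± 0.12 (SD, n = 2). That order holds per length. Before division by length, Pfn2 held more estimated counts than Pfn1, 16341 and 16411 against 13187 and 14913, and the mean log2 ratio turned to -0.22. The 2 coding sequences are further apart than those of the actins, with 161 of 420 bases and 52 of 140 residues different, and no 100-base window of either transcript was found in another gene. Pfn4 was at 6.29 and 5.19 TPM and Pfn3 at 0.57 and 0.00 TPM; both are known mainly from testis. The summed level of the 2 abundant profilins was nearly the same in both libraries, at 1203 and 1199 TPM.

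Cfl1 encodes cofilin 1, which cuts and disassembles old filaments when it is not phosphorylated. Cfl1 (chr19:5490455-5495201, plus strand) ranked 20, at 2355 TPM in replicate 1 and 2343 TPM in replicate 2, or 2349 ± 8.22 TPM (SD, n = 2). Its close relative Dstn (destrin), which disassembles filaments more strongly, was at 348 and 333 TPM, so Cfl1 exceeded it 6.77-fold and 7.03-fold, a mean log2 ratio of 2.79 ± 0.039 (SD, n = 2). Cfl2, the muscle-type cofilin, was at 137 and 133 TPM. The order Cfl1, Dstn, Cfl2 was the same in both libraries with wide gaps. The only near-identical copy of Cfl1, Gm6180, was listed at 8.03 and 5.86 TPM.

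Dbn1 encodes drebrin, which binds along actin filaments and stiffens them. Dbn1 (chr13:55473429-55488111, minus strand, 14 exons in its leading transcript) was at 538 and 523 TPM, or 530.5 ± 10.3 TPM (SD, n = 2), rank 195. No copy of it was found and no 100-base window was shared with another gene.

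Drebrin comes as an embryonic form, drebrin E, and an adult form, drebrin A, which carries an extra exon that is included as neurons mature. The exon is 138 bases long, or 46 codons. It is exon 11 of 15 in the transcript Dbn1-201 and is absent from Dbn1-203. It lies at chr13:55476636-55476773 on the minus strand and is shown whole, in the coding direction, because it alone separates the 2 coding sequences (GENCODE M21, GRCm38). No letter is in capitals, since nothing in it is compared.
Dbn1 exon 11: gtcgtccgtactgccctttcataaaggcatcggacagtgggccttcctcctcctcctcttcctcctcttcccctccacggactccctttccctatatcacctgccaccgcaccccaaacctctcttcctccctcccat
Dbn1-201, the form with the exon (706 codons), was at 0.64 TPM in replicate 1 and 1.40 TPM in replicate 2, from 42.3 and 101 estimated counts. That is 0.119% and 0.268% of the gene's TPM. Dbn1-203, the same coding sequence without the exon (660 codons), was at 340 and 334 TPM, or 63.3% and 63.9%. Dbn1-202 took another 30.8% and 30.2%. It also lacks the exon, adds 3 coding bases at chr13:55474559-55474561 (661 codons) and is annotated with shorter ends. Reads across the exon junctions are not in the tables, so these shares are the authors' division of reads between transcripts. The exon is held by 2 of 9 Dbn1 transcripts, and the other one, Dbn1-206, is annotated as a retained-intron form without a coding sequence. It was at 6.58 and 5.94 TPM, or 1.22% and 1.14% of the gene, so most of the TPM assigned to transcripts with the exon was not in the coding one.

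**Figure D2:**
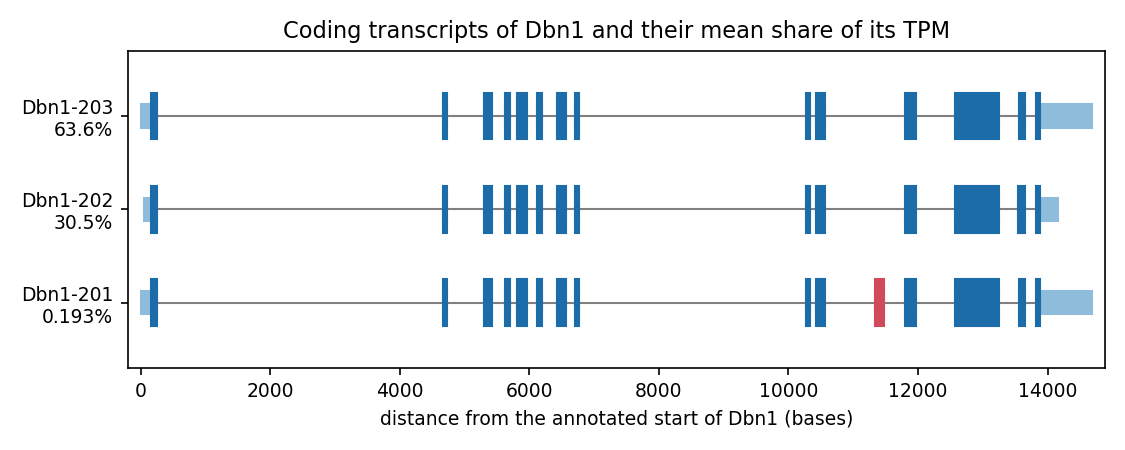
Exon maps of the 3 main coding transcripts of Dbn1, drawn as distance in bases from the annotated start, with tall dark boxes for coding and low pale boxes for noncoding parts. The red box in Dbn1-201 is the 138-base exon, and the percent under each name is the transcript's mean share of the gene's TPM over 2 libraries: 63.6% and 30.5% for the forms without it and 0.193% for the form with it.

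Marcks and Marcksl1 encode myristoylated proteins that bind the inner face of the plasma membrane. Marcksl1 (chr4:129513581-129515985, plus strand, 2 exons) ranked 34, at 1475 TPM in replicate 1 and 1456 TPM in replicate 2, or 1466 ± 13.5 TPM (SD, n = 2). Marcks (chr10:37133375-37138920, minus strand, 2 exons) was the lowest member, rank 601, at 237.3 and 237.6 TPM, or 237 ± 0.226 TPM. Marcksl1 was 6.22-fold and 6.13-fold above Marcks, a mean log2 ratio of Marcks over Marcksl1 of -2.63 ± 0.015 (SD, n = 2). The Marcks transcript is the longer, 4048 bases against 1605, so on estimated counts alone the gap narrowed to -1.24. Neither gene has a near-identical copy, and each is annotated with a single transcript.

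Most members were read from 1 transcript. Cfl1, Marcks and Marcksl1 have only 1 in the tables, and Actb-201, Tmsb4x-201, Tmsb10-203, Pfn1-201 and Pfn2-201 held from 97.1% to 99.5% of their gene's TPM in each library. Of the rest, Tmsb10-204 held 1.95% and 1.53%, Pfn2-203, a form of 110 codons, 1.92% and 2.00%, and Tmsb4x-203 1.20% and 1.47%. Pfn1-204, annotated as a target of nonsense-mediated decay, held 0.782% and 1.02%.

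Actg1 and Dbn1 were the exceptions, each with a second coding transcript of at least 27.0% in both libraries. Actg1-202 held 62.6% in replicate 1 and 72.0% in replicate 2, and Actg1-204 held 36.4% and 27.0%. Both encode the same 375 codons. Actg1-204 lacks the first exon of Actg1-202 (118 bases), 6 bases just ahead of the start codon and 1 base at the 3' end. In TPM, Actg1-202 was at 1876 and 1916, and Actg1-204 at 1089 and 718. As the authors divided the reads, the lower Actg1 level in replicate 2 lay in the transcript without that first exon. Actg1-204 has no annotated base that Actg1-202 lacks, so this split rests on coverage of the few differing bases. A difference in coverage of the 5' end between the libraries was not tested. Retained-intron transcripts made up 5.77% and 5.28% of Dbn1, led by Dbn1-209 with 3.36% and 2.802%, and at most 0.763% of any other member.

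**Figure D3:**
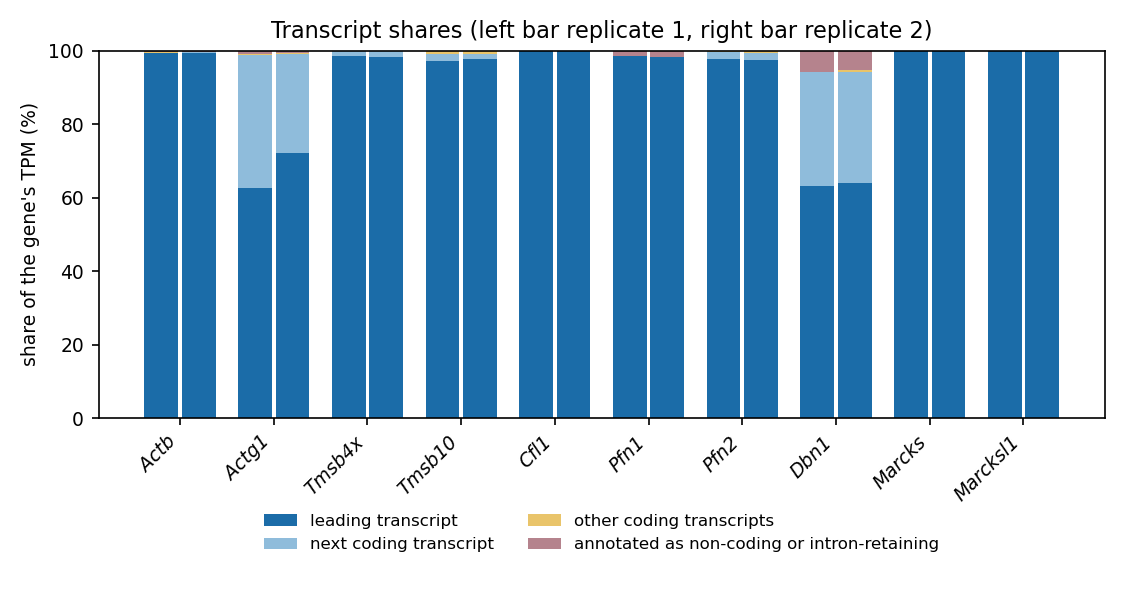
Share of each member's TPM by transcript in percent, with the left bar for replicate 1 and the right bar for replicate 2. Actg1 and Dbn1 are split between 2 coding transcripts, and in Actg1 the leading one held 62.6% of TPM in replicate 1 and 72.0% in replicate 2.

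Between the libraries, the 2 thymosins stood apart from the other members. On log2(TPM + 1), replicate 2 over replicate 1, Tmsb10 differed by 0.40 (1.32-fold) and Tmsb4x by 0.37 (1.29-fold). The other 8 members lay between -0.17 for Actg1 and 0.05 for Pfn1. So 2 of 10 members were higher in replicate 2 by a log2 ratio of at least 0.32, the threshold used here, against 1.35% of the 11953 genes with a mean of at least 100 estimated counts. None of the 10 was lower by that much, against 7.76% of those genes. All members held at least 10000 estimated counts. Of the 485 genes with a mean of at least 10000, 1.03% were higher past the threshold and 1.03% lower. Scaled by TMM, which uses counts and sets the median of all genes near 0, the thymosin ratios were 0.53 for Tmsb10 and 0.50 for Tmsb4x. Again 2 of 10 members were higher, against a background of 3.86%, and none was lower, against 4.17%.

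The median log2 ratio over all genes was -0.10 on TPM and 0.01 with TMM, and over the members -0.01 and 0.11, so 8 of 10 members lay above the median of all genes on either scale. Genes with a mean of at least 10000 estimated counts, as all members have, lay between, with medians of -0.07 and 0.05. Direction against 0 depended on the scale for Actb, Cfl1, Pfn2, Dbn1 and Marcksl1, which were negative on TPM and positive with TMM. Tmsb4x, Tmsb10, Pfn1 and Marcks stayed positive and Actg1 stayed negative on every scale tried. For Marcks the ratio on TPM was only 0.002, so its sign there carries no weight. The deposited interval bounds, whose level no source used here gives, lie around the authors' posterior mean TPM, a second deposited estimate. They do not lie around the TPM printed here. For Actb in replicate 1 they ran from 6019 to 6068 TPM, around a posterior mean of 6044 TPM, against 6201 TPM printed. The bounds overlapped between libraries for Cfl1, Marcks and Marcksl1 and lay apart for the other 7 members. Those bounds cover read counting and assignment only.

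Transcript length moved with these ratios. Genes of up to 1000 bases (865 of them) had a median ratio of 0.02, with 2.89% of them higher in replicate 2 past the threshold and 3.93% lower. Genes over 2000 bases had a median of -0.12, with 1.23% higher and 8.58% lower. Both thymosins are short, with authors' lengths of 767 bases for Tmsb4x and 568 bases for Tmsb10. Among the 52 genes of up to 1000 bases with at least 10000 estimated counts, 1 was lower past the threshold and 4 were higher: the 2 thymosins, Dbi (acyl-CoA binding protein) and Hbb-bs (adult beta globin). Dbi was at 1027 and 1322 TPM and Hbb-bs at 1087 and 1367 TPM. Pfn1, also short at 861 bases in its leading transcript, differed by only 0.05. Of the Tmsb15 genes, Tmsb15l differed by 0.53, Tmsb15b1 by 0.36 and Tmsb15b2 by 0.03. What part length has in the thymosin ratios was not tested.

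**Figure D4:**
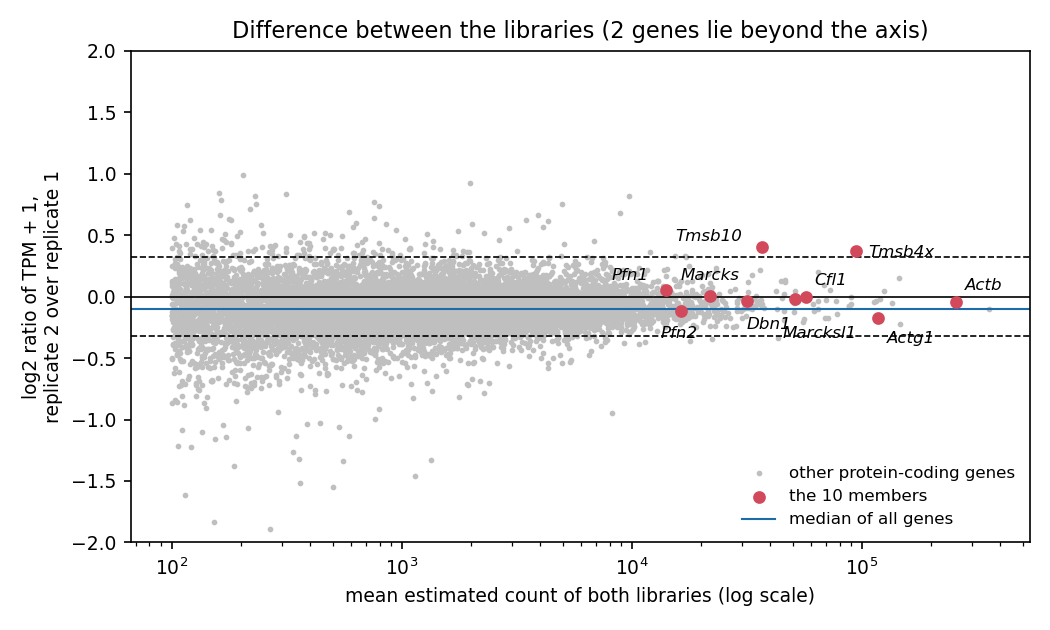
Log2 ratio of TPM + 1, replicate 2 over replicate 1, against the mean estimated count on a log axis, with grey points for protein-coding genes of at least 100 counts and red points for the members. Dashed lines mark a log2 ratio of 0.32 in either direction and the blue line the median of all genes: only Tmsb10 and Tmsb4x among the members lie beyond a dashed line.

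Actin genes are classic targets of serum response factor, which binds the CArG box (CC, then 6 bases that are each A or T, then GG). RefSeq promoter windows on GRCm38.p6, from 250 bases before to 50 after a start, were at hand for 8 of the 10 members, all but Actb and Marcks, in 10 windows. Both strands were searched. Only the Actg1 window held a CArG box, a motif found in 1.63% of all 32851 windows. The box lies at chr11:120348576-120348585, from 90 to 81 bases before the RefSeq start and 34 bases from the start in GENCODE M21. The 120 bases ahead of the GENCODE start, chr11:120348543-120348662 on the minus strand, are shown with the box in capitals.
Actg1 promoter: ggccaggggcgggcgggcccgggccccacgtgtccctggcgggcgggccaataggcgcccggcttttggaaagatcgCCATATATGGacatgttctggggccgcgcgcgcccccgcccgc
The box did not overlap any of the other motifs searched. Several of the 10 member windows are overlapping windows of Tmsb10. GGGCGG, a site of the Sp1 kind, was in 10 of 10 member windows, those of 8 of 8 members, against 35.7% of all windows. CCAAT was in 3 (Actg1, Cfl1 and Marcksl1) against 37.4%, and TATAAA in none against 13.6%. A match in letters is a description of the window and not a bound site.

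The wider actin machinery was described through 15 lists, which include the members' own families. Levels are in TPM, replicate 1 then replicate 2. Counts of genes past 10 TPM use the mean of both libraries and stand beside 39.8% over all protein-coding genes.

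Among the lists of nucleation and elongation genes, the highest median level was that of the Arp2/3 complex, which starts filament branches. All 10 of its genes passed 10 TPM and the median was 153 ± 6.74 TPM (SD of the medians, n = 2). Arpc4 was at 315 and 300.1 TPM, Arpc2 at 312 and 301 TPM, Arpc5 at 251 and 256 TPM, and Actr3b was the lowest at 23.6 and 22.2 TPM. The WAVE complex and N-WASP, which switch Arp2/3 on, had 9 of 12 genes past 10 TPM and a median of 47.4 ± 2.50 TPM. Brk1 led at 191 and 187 TPM, followed by Wasl at 57.1 and 60.5 TPM and Wasf1 at 55.2 and 50.5 TPM. The blood-cell gene Was was lowest at 0.09 and 0.07 TPM. Formins and Spire proteins, which build unbranched filaments from profilin-bound actin, were much lower: 4 of 15 passed 10 TPM and the median was 5.05 ± 0.127 TPM. Fmnl2 led at 18.3 and 19.6 TPM, with Spire2 at 17.2 and 17.3 TPM and Daam1 at 14.2 and 12.1 TPM, and Fmn1 was lowest at 0.04 and 0.07 TPM. Ena/VASP proteins, the elongation factors of filopodia, were at 67.2 and 60.5 TPM for Evl, 31.3 and 28.7 TPM for Enah, and 26.1 and 26.8 TPM for Vasp. Each of these nucleators and elongators stood below both Pfn1 and Pfn2.

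Disassembly proteins that work with Cfl1 were all present: 13 of 13 genes of the cofilin list were at 1 TPM or more in both libraries, as were 59.0% of all protein-coding genes, and 12 passed 10 TPM, with a median of 94.1 ± 2.86 TPM. After Cfl1 and Dstn came Coro1c, a coronin, at 205 and 193 TPM, and Cap2, a cyclase-associated protein, was lowest at 7.93 and 7.79 TPM. Capping and severing proteins had 9 of 14 genes past 10 TPM. The capping protein subunits Capzb, Capza2 and Capza1 led at 260 and 251, 206 and 198, and 162 and 145 TPM, and the gelsolin relative Scin was lowest at 0.02 and 0.03 TPM.

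Drebrin, the MARCKS family and other growth cone proteins formed one of the higher lists, with 14 of 15 past 10 TPM and a median of 155 ± 8.37 TPM. Beside Marcksl1 the highest were the collapsin response mediators Dpysl2, at 889 and 854 TPM, and Dpysl3, at 574 and 546 TPM. Gap43, the growth-associated protein that, like Marcks, binds calmodulin at the membrane, was at 328 and 335 TPM, above Marcks and below Marcksl1 in both libraries. Gprin1 was lowest at 2.97 and 2.86 TPM. Gap43 is also in the neuron list.

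Among crosslinkers, Fscn1, the fascin that bundles filopodial actin, led at 441 and 430 TPM, followed by Cttn at 151 and 138 TPM and Sptan1 at 112 and 96.9 TPM. Muscle Actn2 was lowest at 1.33 and 0.52 TPM, and 9 of 14 genes passed 10 TPM. The tropomyosins, which coat filaments, were led by Tpm3 at 399 and 368 TPM and Tpm4 at 264 and 252 TPM, with Tpm1 at 99.9 and 88.8 TPM and Tpm2 lowest at 9.53 and 9.96 TPM. Non-muscle myosins had 10 of 11 genes past 10 TPM. The light chains Myl6, Myl12b and Myl12a led at 552 and 537, 331 and 335, and 166 and 168 TPM, and Myh14 was lowest at 0.69 and 0.40 TPM. None of these genes reached the level of Actb, Actg1, Tmsb4x, Tmsb10 or Cfl1.

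**Figure D5:**
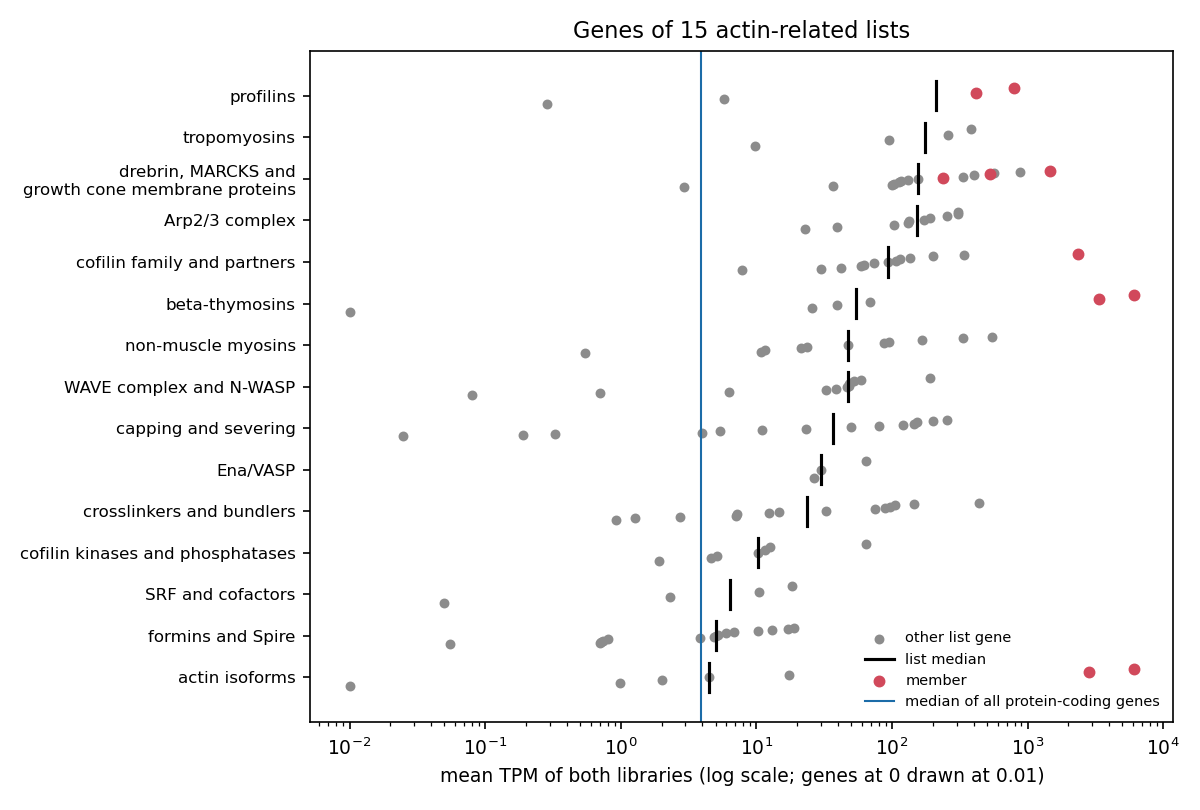
Mean TPM of both libraries on a log axis for each gene of 15 lists, with members in red, other genes in grey, the list median as a black bar and the median of all protein-coding genes (3.91 TPM) as a blue line. In the actin, thymosin, profilin and cofilin lists the members are the highest points, and the actin list's median (4.51 TPM over mean levels, 3.32 and 2.22 TPM within the libraries) lies far below its 2 members.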

How the data were processed

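Total RNA-seq of 2 mouse forebrain libraries was analysed from the gene and transcript tables the authors deposited. Per the file headers, their columns are those RSEM writes. Estimated counts (the deposited expected counts) divide a shared read between features. The deposited TPM values are the authors' levels per length over all rows, with a posterior mean beside them. The deposited FPKM values were made by the authors from the same reads and are not printed. The deposited percent column gives the authors' transcript shares, while the printed shares come from the TPM values. The deposited interval bounds are score-like values of the authors used only to see whether libraries overlapped. Reads were aligned to mm10, per the labels. The aligner, its settings, the tool versions and the strand setting are not given in the sources used.

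Each gene table has 69691 rows, and 42462 mouse identifiers matched GENCODE M21 on GRCm38, which gave symbols, classes, coordinates and coding sequences. The deposited effective length is the length minus 99 bases, so a very short gene can reach a high TPM from few reads. The authors' length of Pfn2 is 1827 bases, and the newer annotation gives 2342. Each level is the mean ± SD of both libraries. Differences between libraries are log2 ratios of TPM with a pseudocount of 1, over genes with a mean of at least 100 estimated counts. Rounded counts were scaled in R 4.3.3 by TMM (edgeR 4.0.16) and by size factors (DESeq2 1.42.0), and no count test was run. Copies were found with BLAST 2.17.0. Tables and figures were made with pandas 2.3.3, numpy 2.4.6 and matplotlib 3.10.9 under Python 3.11.15. Promoter windows are RefSeq's.

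Every member is named, and so are, in each gene list, the 3 genes highest by mean TPM and the lowest gene. Members' paralogs and copies holding at least 1% of a member's TPM in either library are named too. Gm9844, Gm6180, Dbi and Hbb-bs were named after their values were seen. One gene list is not reported here. The members and lists were chosen with earlier results of these data known.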

Additional observations from a re-analysis of the deposited data

How the results depend on the processing

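The ratio of Pfn1 over Pfn2 changed direction, to -0.22, on estimated counts not divided by length. On the same counts the log2 ratios were 1.36 for Tmsb4x over Tmsb10, -1.24 for Marcks over Marcksl1 and 2.00 for Cfl1 over Dstn. With copies added, Tmsb4x over Tmsb10 was 0.82. Over protein-coding genes alone the members' summed level was 30040 TPM, and all 10 levels moved likewise. By estimated counts the leading transcript held 99.8% of Actb, 97.7% of Pfn1, 98.8% of Pfn2 and 70.6% of Dbn1. At 1.5-fold and at 2-fold the number of members past the threshold between libraries was 0. With genes of at least 1 TPM in both libraries, list medians became 17.3 TPM for actin isoforms, 68.6 for beta-thymosins, 414 for profilins, 6.39 for formins, 80.1 for capping proteins, 32.8 for crosslinkers, 67.5 for myosins and 10.5 for SRF and cofactors, since fewer genes enter. The posterior mean gave 35.7 TPM for capping proteins. In single libraries the median ran from 2.22 to 3.32 TPM for actin isoforms and from 5.01 to 5.19 TPM for formins. The ratios between libraries of Actb, Cfl1, Pfn2, Dbn1 and Marcksl1 also changed sign, both under TMM and under DESeq2 size factors. Those size factors were 1 and 1, so the latter are unscaled counts. TMM shifted the median ratio of the members from -0.01 to 0.11 and that of all genes from -0.10 to 0.01.

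No paired analysis was possible because the 2 libraries form 1 group. With 2 libraries, a single-library level, ratio, share or sum lies within the SD by arithmetic, so it tells nothing of stability. Leaving out a library leaves no difference between libraries to recompute. The share of Dbn1-201 rests on 42.3 and 101 estimated counts and is the least precise, and every SD rests on 2 libraries.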

Other observations

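The enzymes that switch cofilin and the factors that drive actin genes were also measured. Cofilin is silenced by LIM kinases and reactivated by slingshot phosphatases, and these enzymes were far below Cfl1: 4 of 7 genes found passed 10 TPM and the median was 10.3 ± 1.36 TPM (SD of the medians, n = 2). Limk2 led at 68.0 TPM in replicate 1 and 61.5 TPM in replicate 2, with Ssh2 at 13.98 and 11.4 TPM, Limk1 at 11.8 and 11.3 TPM, and Ssh3 lowest at 2.34 and 1.49 TPM. Serum response factor, Srf, was at 2.35 and 2.28 TPM, and its actin-regulated cofactors Mrtfa and Mrtfb at 19.4 and 17.2 TPM and at 11.5 and 9.49 TPM. The cardiac and smooth muscle cofactor Myocd was at 0.03 and 0.07 TPM.

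Markers of other cell types were also measured. Microglia markers summed to 65.2 and 63.6 TPM, endothelial markers to 107 and 114 TPM, and mural and smooth muscle markers to 24.7 and 26.1 TPM. Erythroid markers summed to 13394 and 12798 TPM, within which Hbb-bs was higher in replicate 2 and the embryonic globins Hbb-y (3699 and 2935 TPM) and Hba-x (381.5 and 261 TPM) were lower. Their part in the thymosin difference was not tested.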
